A study of Mus musculus with 2 samples.

Results

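The genes described here are 10 members of vascular endothelial growth factor (VEGF) signalling and of the islet capillary: *Vegfa*, *Kdr*, *Flt1*, *Nrp1*, *Esm1*, *Plvap*, *Angpt2*, *Tek*, *Pdgfb* and *Pdgfrb*. They were chosen by symbol, and all 10 were found among the 31053 genes of the files. They were read in 2 droplet libraries of islet cells, 1 from WT and 1 from *Npc1*-/- mice. The labels call the latter Npc1KO, and *Npc1* encodes a lysosomal cholesterol exporter. Each library was made from the islets of 3 female mice of 1 genotype at the age of 2 weeks, on the C57BL/6J background, and the *Npc1*-/- mice and their WT littermates came from heterozygous parents. *Npc1* itself had 790 UMIs in the kept WT cells and 391 in the kept *Npc1*-/- cells, or 8.40 CPM (UMI counts per 1000000; 95% interval 7.82 to 9.0) and 4.14 CPM (3.74 to 4.57), so that transcripts of the gene were still counted in the library labelled *Npc1*-/-.

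Endocrine cells secrete VEGF-A, which binds the receptor tyrosine kinases VEGFR2 (*Kdr*) and VEGFR1 (*Flt1*, a high-affinity receptor that also acts as a decoy) and the coreceptor neuropilin-1 (*Nrp1*) on endothelial cells. VEGF-A keeps islet capillaries dense and fenestrated. Angiopoietins act on the endothelial receptor TIE2 (*Tek*), and PDGF-B from endothelium holds pericytes, which carry PDGFRβ (*Pdgfrb*), on the vessel wall. *Esm1* encodes endocan, a secreted proteoglycan of VEGF-exposed endothelium, and *Plvap* encodes the protein of fenestral and stomatal diaphragms.

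Each member is annotated on GRCm38 as a protein-coding gene, with *Vegfa* at chr17:46016993-46032369, *Kdr* at chr5:75932827-75978458, *Flt1* at chr5:147561604-147726011, *Nrp1* at chr8:128358604-128503363, *Esm1* at chr13:113209659-113218098, *Plvap* at chr8:71497765-71511752, *Angpt2* at chr8:18690263-18741562, *Tek* at chr4:94739289-94874976 and *Pdgfb* at chr15:79995874-80014977, and the 3' reads used here come from the ends of their transcripts.

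The letters before the start sites of the ligand and of 3 genes of its target cells are given to show their base composition. Capitals mark the ETS-type core GGAAG and the GC box GGGCGG on either strand, and the sequences are those of RefSeq on GRCm38.p6, for which 6 of the 10 members were matched.
*Vegfa* upstream bases, chr17:46032378-46032627, minus strand: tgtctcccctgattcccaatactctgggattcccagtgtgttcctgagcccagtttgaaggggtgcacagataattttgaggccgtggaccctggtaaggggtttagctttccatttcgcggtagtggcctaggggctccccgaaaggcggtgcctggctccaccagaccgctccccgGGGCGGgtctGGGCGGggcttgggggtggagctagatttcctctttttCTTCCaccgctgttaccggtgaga
*Kdr* upstream bases, chr5:75978456-75978705, minus strand: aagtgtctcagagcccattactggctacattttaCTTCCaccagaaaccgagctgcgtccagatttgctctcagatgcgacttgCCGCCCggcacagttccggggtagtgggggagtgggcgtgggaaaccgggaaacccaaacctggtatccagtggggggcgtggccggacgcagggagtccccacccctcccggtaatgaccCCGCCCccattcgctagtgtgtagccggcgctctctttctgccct
*Flt1* upstream bases, chr5:147726012-147726261, minus strand: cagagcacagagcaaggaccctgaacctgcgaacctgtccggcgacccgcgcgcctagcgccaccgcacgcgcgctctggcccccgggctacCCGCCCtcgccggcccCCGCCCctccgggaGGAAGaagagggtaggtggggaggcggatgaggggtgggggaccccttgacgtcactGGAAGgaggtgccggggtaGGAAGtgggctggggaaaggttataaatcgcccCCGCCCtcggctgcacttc
*Esm1* upstream bases, chr13:113209409-113209658, plus strand: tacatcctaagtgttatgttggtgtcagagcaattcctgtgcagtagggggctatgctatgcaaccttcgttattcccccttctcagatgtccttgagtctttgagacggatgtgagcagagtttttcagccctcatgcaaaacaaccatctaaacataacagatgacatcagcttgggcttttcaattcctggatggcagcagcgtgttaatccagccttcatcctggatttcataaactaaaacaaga

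GGAAG stood once in the 250 bases of *Vegfa* and of *Kdr*, at 3 places before *Flt1* and at 0 before *Esm1*, and 64.1% of 32851 promoters of this length held it. GGGCGG stood at 2 places before *Vegfa*, 2 before *Kdr*, 3 before *Flt1* and 0 before *Esm1*, against 32.7% of all promoters with at least 1. The upstream bases of *Esm1* were 44.0% G and C, and those of *Flt1* 70.4%. Those of *Vegfa* and *Kdr* shown here were close to each other, at 59.2% and 61.6%. The hypoxia-type cores ACGTG and GCGTG were found at 0 places before this start of *Vegfa*, at 2 before its other listed start, at 2 before *Kdr*, at 1 before *Flt1* and at 1 before *Esm1*, and 38.6% of promoters held one. The TATA box TATAAA stood at 1 place before *Flt1* and at 0 in the other sequences shown, against 12.4% of promoters. All motifs were searched on both strands. Matches are a description of these letters.

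Kept barcodes had over 1000 genes, less than 50000 UMIs, a mitochondrial share below 10% and a haemoglobin share of 0.1% or less, which left 4628 of 8569 WT and 4269 of 7646 *Npc1*-/- barcodes, with medians of 18905 and 21381 UMIs. The libraries shared 3 of the kept barcodes. A barcode was put in a hormone class by its leading hormone, if that took at least 10% of its UMIs, and otherwise in a class by standard markers, none of which is a member. This gave 1833 WT and 1826 *Npc1*-/- β-like cells, 1048 and 857 α-like cells, 189 and 141 δ-like cells, and 411 and 442 PP-like cells. There were 422 and 412 endothelial-like cells, in which all 13 endothelial markers were found, and 241 and 265 stellate-like cells, the mural cells of the islet. Mesenchymal-like, Schwann-like and macrophage-like cells numbered 30 to 48 per library. With 1 library per genotype there is no replicate check and no p-value. All 95% intervals are exact, by Poisson for a level, by Clopper-Pearson for a share and by a conditional binomial for a ratio. They hold counting error alone, and genotype and library cannot be told apart. A level is the CPM of the gene after adding up all cells of a class in 1 library. Ratios between genotypes are given relative to the median gene of the class, and 1.5-fold from that gene is the size beyond which a gene is counted as different.

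Ligand and receptors lay in separate classes in both libraries. *Vegfa* was the 1 member at least 4-fold higher in β-like than in endothelial-like cells in both libraries, a gap that 9.29% of 14784 genes showed. *Kdr*, *Flt1*, *Nrp1*, *Esm1*, *Plvap*, *Tek* and *Pdgfb* were the 7 members at least 4-fold higher in endothelial-like than in β-like cells, as were 18.4% of these genes. *Pdgfrb* was the 1 member at least 4-fold higher in stellate-like than in endothelial-like cells, against 7.00% of 12101 genes.

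**Figure D1:**
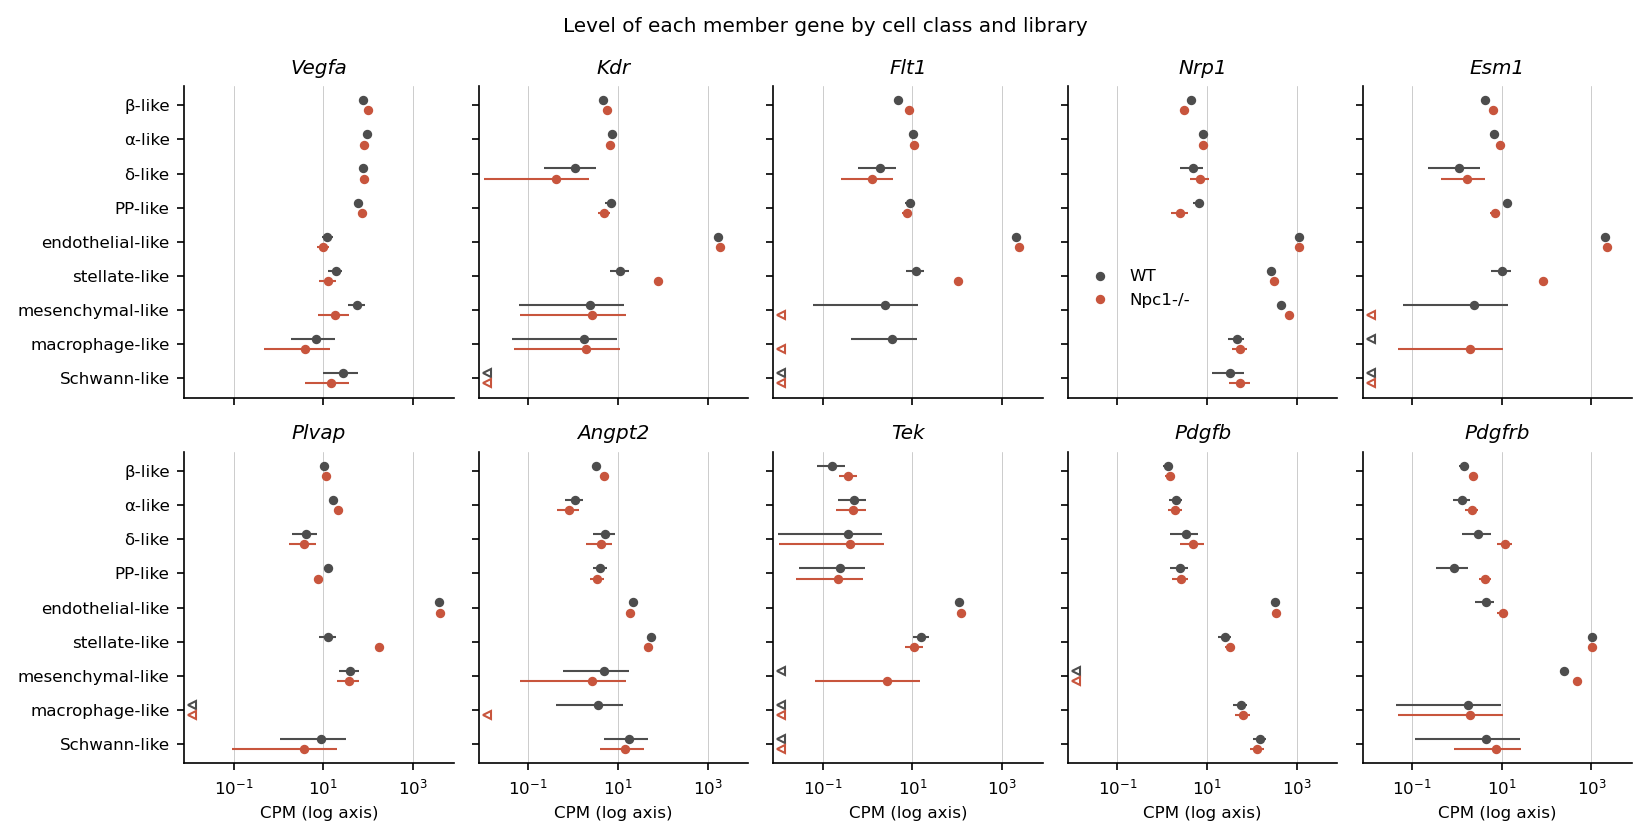
Level of each member (CPM, log axis) in 9 classes, with WT in grey and *Npc1*-/- in red, bars for the 95% Poisson interval and open triangles for 0 UMIs. *Vegfa* is highest in the 4 hormone classes, *Pdgfrb* and *Angpt2* in stellate-like cells, and the other 7 members in endothelial-like cells.

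*Vegfa* had 4133 UMIs in WT β-like cells, or 75.4 CPM (73.1 to 77.8), and 5258 in *Npc1*-/- β-like cells, or 97.1 CPM (94.5 to 99.8). The α-like level was 92.1 CPM (87.8 to 96.6) in WT, against 82.1 CPM (77.8 to 86.5) in the other library. δ-like cells had 78.5 and 82.6 CPM, and PP-like cells 60.6 and 71.2 CPM. The 4 hormone classes thus ran from 60.6 to 92.1 CPM in WT and from 71.2 to 97.1 CPM in *Npc1*-/-. PP-like cells were the lowest of them in both libraries, at 0.804-fold (0.730 to 0.882) and 0.734-fold (0.675 to 0.795) of the β-like level. None of the 4 was highest of them in both libraries on this scale. Hormone transcripts made up 53.3% of β-like and 34.5% of α-like UMIs in WT. When they were left out of the total, β-like cells were the highest of the 4 in both libraries, where *Vegfa* had 161.5 CPM for WT and 199.7 CPM for *Npc1*-/-, followed by α-like cells with 140.7 and 124.8 CPM. The order of β-like and α-like cells in WT therefore depended on the total. δ-like and PP-like cells, at 102.7 to 118.0 CPM on that scale, had overlapping intervals in both libraries.

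β-like cells held 61.1% of all *Vegfa* UMIs of the kept WT cells (59.9 to 62.2) and 66.5% in *Npc1*-/- (65.4 to 67.5). α-like cells held 25.2% and 17.8%, and endothelial-like cells 0.753% and 0.594%. By number of molecules the β-like cells were thus the main counted source of the ligand in both libraries. They also held most UMIs of all genes, 54792591 of 94096566 in WT and 54150278 of 94392651 in *Npc1*-/-. The shares thus largely follow the size of the class and do not by themselves set *Vegfa* apart.

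In the endothelial-like and stellate-like classes *Vegfa* was lower than in the hormone classes but not absent. An unnamed group of barcodes with duct markers had 105.8 CPM from 64 UMIs in WT and 119.0 CPM from 223 UMIs in *Npc1*-/-, with intervals of 81.5 to 135.2 and 103.9 to 135.7. Endothelial-like cells had 51 UMIs in WT, or 12.4 CPM (9.22 to 16.3), and 47 in *Npc1*-/-, or 9.94 CPM (7.31 to 13.2). That is 16.4% and 10.2% of the β-like level, whereas the 9 β markers summed stood at 3.20% and 1.94% of theirs in the same endothelial-like cells. The source of these molecules was not tested. Stellate-like cells had 18.8 and 12.6 CPM. Mesenchymal-like cells had 56.2 CPM (35.6 to 84.3) from 23 UMIs in WT and 18.6 CPM (7.48 to 38.4) from 7 UMIs in *Npc1*-/-. Their WT interval overlapped those of WT β-like, δ-like and PP-like cells.

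Most β-like cells had *Vegfa*. The share of β-like cells with a UMI was 86.7% in WT, against 88.7% in the *Npc1*-/- library, at median depths of 30417 and 30094 UMIs. At a fixed 3000 UMIs per cell the share was 21.1% (19.2 to 23.0) in WT and 25.6% (23.6 to 27.7) in *Npc1*-/-. This left out 13 and 3 shallower cells. At 1500 UMIs per cell the shares were 11.3% (9.88 to 12.8) in WT and 11.8% (10.4 to 13.4) in *Npc1*-/-, with overlapping intervals. In endothelial-like cells, whose median depths were 7590.5 and 9044 UMIs, the share at 3000 UMIs was 3.16% and 2.20%. The median β-like cell had 67.8 CPM of *Vegfa* in WT, against 87.5 CPM in *Npc1*-/-, the upper decile began at 158.0 and 189.5 CPM, and the tenth of cells with most UMIs of *Vegfa* held 25.7% and 25.3% of them. The ligand was thus spread over the class in both libraries and not held by a few cells.

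Relative to the median gene, *Vegfa* was higher in *Npc1*-/- than in WT β-like cells by a log2 ratio of 0.23 (0.17 to 0.29), 1.17-fold. In α-like cells it was lower, at -0.20 (-0.30 to -0.09). The log2 ratio was 0.06 (-0.22 to 0.35) in δ-like cells and 0.17 (0.00 to 0.34) in PP-like cells. None of these 4 values reached 1.5-fold. The β-like cells of both libraries together were split into 3 equal groups by the share of *Ppy* and *Pyy* UMIs. The values were 0.26, 0.29 and 0.19 from the lowest share up. WT had 734, 653 and 446 cells in these groups and *Npc1*-/- 486, 566 and 774. Split by the share of *Ucn3*, a gene of mature β cells, the values were 0.16, 0.28 and 0.32. There WT had 460, 627 and 746 cells and *Npc1*-/- 760, 592 and 474. The part of this mix of cells in the β-like value was not tested. Over all β-like cells, the mean over cells gave a smaller 0.13.

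The other VEGFR1 ligands were also counted in the hormone classes. *Pgf*, which encodes a VEGFR1 ligand, had 948 UMIs in β-like cells of WT and 1592 in those of *Npc1*-/-, or 17.3 and 29.4 CPM. Its relative log2 ratio of 0.63 (0.51 to 0.75) lay past 1.5-fold. In α-like cells *Pgf* had 23.4 and 25.6 CPM, and in stellate-like cells 87.0 and 92.4 CPM. *Vegfb*, another VEGFR1 ligand, was at 29.6 and 31.7 CPM in β-like cells, with a relative log2 ratio of -0.03 (-0.13 to 0.06). *Pgf* thus had its highest level in the mural cells, while β-like cells held more of its UMIs (stellate-like cells had 148 and 176), and β-like cells had 1620 and 1717 UMIs of *Vegfb*.

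*Kdr* had 6831 UMIs in WT and 9068 in *Npc1*-/- endothelial-like cells, or 1658 CPM (1619 to 1698) and 1918 CPM (1879 to 1958). These were 352-fold and 328-fold above its level in β-like cells. Endothelial-like cells held 87.9% and 82.4% of its UMIs, and it was found in 97.8% and 98.8% of them at 3000 UMIs per cell. In β-like cells, which should lack the receptor, 0.879% and 0.823% had a UMI at that depth. The gene thus marked the endothelial-like class almost cell by cell, though it had no part in defining it.

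*Flt1* had 8184 UMIs in WT and 11345 in *Npc1*-/- endothelial-like cells, or 1987 CPM (1944 to 2030) and 2400 CPM (2356 to 2444). It was found in 96.1% and 98.3% of them at 3000 UMIs, against 0.659% and 0.878% of β-like cells. Its relative log2 ratio of 0.28 (0.23 to 0.32) was above that of *Kdr* at 0.21 (0.17 to 0.26). Both VEGF receptors were thus somewhat higher in the *Npc1*-/- library, by less than 1.5-fold, and stood at percentiles 87.2 and 82.0 of the genes of the class.

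*Nrp1* had the widest distribution of the 3 receptors. Its level was 1112 CPM in WT and 1129 CPM in *Npc1*-/- endothelial-like cells, with a relative log2 ratio of 0.02 (-0.03 to 0.08). Mesenchymal-like cells followed with 449.4 and 675.5 CPM, then stellate-like cells with 266.4 and 302.5 CPM, and each step of this order was the same in both libraries. Macrophage-like cells had 45.7 and 54.9 CPM, and Schwann-like cells 31.7 and 54.9 CPM, with overlapping intervals. Endothelial-like cells held 73.7% and 71.5% of its UMIs. In mesenchymal-like cells the relative log2 ratio of 0.60 (0.33 to 0.89) rested on 184 and 254 UMIs from 36 and 38 cells.

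*Esm1* had 2050 CPM in endothelial-like cells of WT and 2232 CPM in those of *Npc1*-/-, and *Plvap* had 3744 and 4008 CPM. Their relative log2 ratios were 0.13 (0.08 to 0.17) and 0.10 (0.07 to 0.13). The totals of both genes were thus close between the libraries. Over single cells they behaved unlike. *Plvap* was found in 99.3% and 100% of endothelial-like cells at 3000 UMIs, and its deciles ran from 2052 to 5645 CPM in WT and from 2457 to 5744 CPM in *Npc1*-/-. *Esm1* was found in 79.6% (75.4 to 83.4) and 81.5% (77.4 to 85.1), with a median of 1576 CPM in WT and 1850 CPM in *Npc1*-/- and an upper decile from 5362 and 5431 CPM. In β-like cells the thinned shares were 0.440% and 0.823% for *Esm1* and 0.934% and 1.26% for *Plvap*. Without thinning, 88.4% and 91.0% of endothelial-like cells had an *Esm1* UMI. The tenth of cells with most *Esm1* held 33.1% and 35.3% of its UMIs, against 24.2% and 24.5% for *Plvap*.

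**Figure D2:**
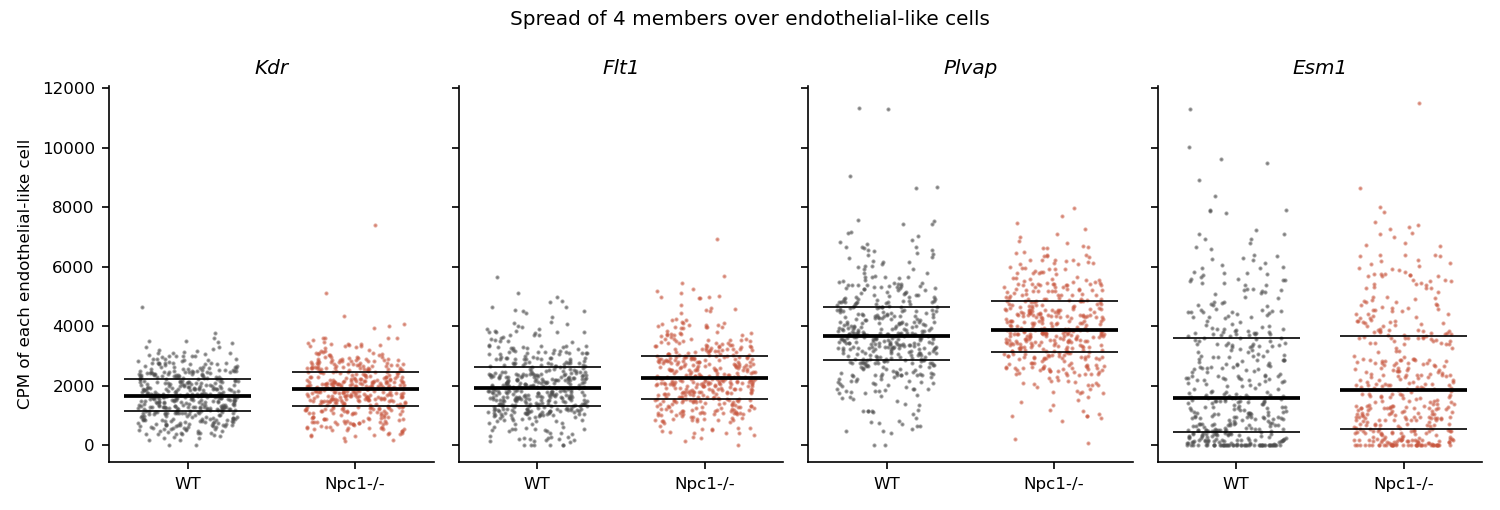
CPM of *Kdr*, *Flt1*, *Plvap* and *Esm1* in each endothelial-like cell (1 dot per cell, 422 WT and 412 *Npc1*-/-), with thick lines for the median and thin lines for the quartiles. *Esm1* reaches from 0 to 11282 CPM in WT and to 11494 CPM in *Npc1*-/-, while its quartiles, 431.2 and 3589 CPM in WT, lie far apart.

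In the 59 WT endothelial-like cells with at least 2 of 4 venous markers (*Nr2f2*, *Ackr1*, *Ephb4*, *Vwf*), *Esm1* was at 1040 CPM (973.4 to 1110), against 2604 CPM (2509 to 2703) in the 151 cells with none. In *Npc1*-/- the values were 1675 CPM in 52 cells and 2992 CPM in 122 cells. *Plvap* in the same WT groups had 3444 and 3878 CPM, *Kdr* 1314 and 1674, *Flt1* 1709 and 2104, and *Nrp1* 816.2 and 1213 CPM. In *Npc1*-/- *Kdr* had 1777 and 2020 CPM and *Nrp1* 1068 and 1244 CPM. *Flt1* had 2323 and 2435 CPM there and *Plvap* 4036 and 4228 CPM, each with overlapping intervals. Cells with venous markers were deeper, with a median of 12806 against 6386 UMIs in WT, and the part of depth in these splits was not tested. *Esm1* was also lower in cells with a UMI of *Apln*, a gene of sprouting tip cells, at 1502 against 2292 CPM in WT and 1223 against 2558 CPM in *Npc1*-/-. *Flt1* was lower in the same cells, at 1629 against 2145 CPM in WT and 1735 against 2615 CPM in *Npc1*-/-. So were *Kdr*, at 1546 against 1708 and 1640 against 2008 CPM, and *Nrp1*, at 988.8 against 1167 and 905.4 against 1201 CPM. *Tek* was at 120.0 against 101.3 CPM and 136.8 against 116.2 CPM, with overlapping intervals. With at least 2 of 6 arterial markers, which 295 WT and 301 *Npc1*-/- cells had, *Esm1* was at 2252 and 2419 CPM, and with none, in 38 cells of each library, at 1066 and 1545 CPM. In the same arterial split *Kdr* was at 1729 against 1136 CPM in WT and 1997 against 1478 CPM in *Npc1*-/-. *Flt1* was at 2105 against 1276 and 2552 against 1686 CPM. Cells with *Apln* were deeper too, with medians of 10563 against 7071 UMIs in WT and 13521 against 8382 in *Npc1*-/-. So were those with arterial markers, at 8860 against 6403 and 11581 against 6063.5 UMIs. Both libraries thus gave the same order of *Esm1* in each split, which *Kdr* shared, the cells being of 1 pool each.

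*Angpt2*, which encodes a context-dependent antagonist of TIE2, was highest in stellate-like cells, with 95 UMIs in WT, or 55.9 CPM (45.2 to 68.3), and 91 in *Npc1*-/-, or 47.8 CPM (38.5 to 58.7). Endothelial-like cells had 22.1 and 18.6 CPM, and the relative log2 ratio was -0.24 (-0.68 to 0.19) there, -0.23 (-0.66 to 0.20) in stellate-like cells and 0.48 (0.20 to 0.76) in β-like cells. Of all *Angpt2* UMIs, 37.9% in WT and 47.9% in *Npc1*-/- came from β-like cells, at the low level of 3.21 CPM (2.76 to 3.72) and 4.91 CPM (4.34 to 5.54). Both shares were below the part that these cells held of the UMIs of all genes. δ-like cells had 5.16 and 4.11 CPM and PP-like cells 4.05 and 3.42 CPM, with intervals that overlapped those of β-like cells in both libraries. The α-like level was lower, at 1.08 and 0.816 CPM. The level in β-like cells was 14.5% and 26.4% of that in endothelial-like cells, whereas the 13 endothelial markers summed stood at 0.357% and 0.412% of theirs. *Angpt2* was thus counted in β-like cells at a level that endothelial markers did not share, and δ-like and PP-like cells had similar levels of it.

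*Tek* had 441 and 573 UMIs in endothelial-like cells, or 107.1 CPM (97.3 to 117.5) in WT and 121.2 CPM (111.5 to 131.6) in *Npc1*-/-, with a relative log2 ratio of 0.18 (0.00 to 0.36). At 3000 UMIs it was found in 23.5% (19.5 to 27.9) and 31.7% (27.2 to 36.5) of these cells, against 0 and 0.0549% of β-like cells. Stellate-like cells had 15.9 and 11 CPM from 27 and 21 UMIs. *Tie1*, the orphan partner receptor of TIE2, was at 320.9 and 361.7 CPM in endothelial-like cells. *Angpt1*, the activating ligand, was at 18.8 and 19.4 CPM in stellate-like cells, from 32 and 37 UMIs. Mesenchymal-like cells had 7.33 and 10.6 CPM of *Angpt1* from 3 and 4 UMIs, with intervals that overlapped the stellate-like ones. Receptor and partner thus lay in endothelial-like cells. The activating ligand had its highest level, from few UMIs, in stellate-like cells, where *Angpt2* was highest too.

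*Pdgfb* had 1340 and 1603 UMIs in endothelial-like cells, or 325.3 CPM (308.1 to 343.2) in WT and 339.1 CPM (322.7 to 356.1) in *Npc1*-/-. Schwann-like cells came next with 149.5 and 131.8 CPM from 33 and 36 UMIs, then macrophage-like cells with 56.3 and 62.7 CPM. The relative log2 ratio in endothelial-like cells was 0.06 (-0.04 to 0.17). *Pdgfrb*, its receptor, had 1722 and 1960 UMIs in stellate-like cells, or 1013 CPM (965.4 to 1062) in WT and 1029 CPM (984.4 to 1076) in *Npc1*-/-, and was found in 93.1% and 95.2% of them at 3000 UMIs, against 0.243% and 1.22% of endothelial-like cells. Its relative log2 ratio there was 0.02 (-0.08 to 0.11). Ligand and receptor thus lay in complementary classes with nearly the same levels in both libraries. *Pdgfrb* was also counted in mesenchymal-like cells, at 241.8 CPM from 99 UMIs in WT and 484.0 CPM from 182 UMIs in *Npc1*-/-, a relative log2 ratio of 1.02 (0.66 to 1.39) from 36 and 38 cells. Of the 4 members counted in that class *Pdgfrb* and *Nrp1* lay past 1.5-fold above and *Vegfa* below, where 26.2% of 5432 genes lay past it. The stellate markers summed to 2740 CPM there in WT and 3606 CPM in *Npc1*-/-, and 12 and 16 of the cells had the smallest lead over the next type that the rule allowed. The part of these markers in the *Pdgfrb* value was not tested.

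**Figure D3:**
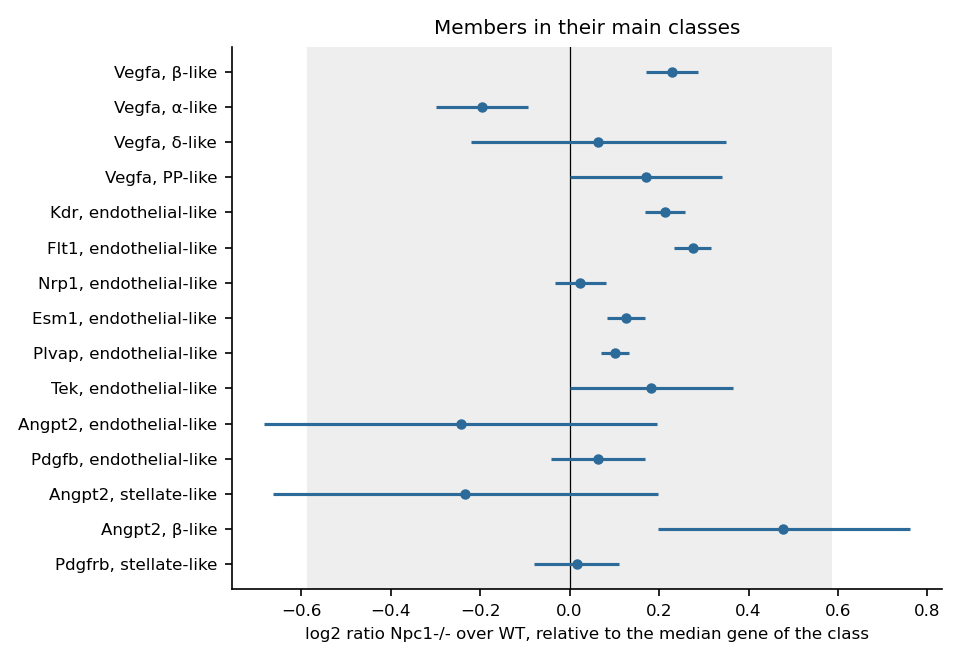
Log2 ratio of *Npc1*-/- over WT relative to the median gene, for *Vegfa* in the 4 hormone classes, 8 members in endothelial-like cells, *Angpt2* also in stellate-like and β-like cells, and *Pdgfrb* in stellate-like cells, with 95% counting intervals, and grey for less than 1.5-fold. Each point lies within the grey band, from -0.24 for *Angpt2* in endothelial-like cells to 0.48 for *Angpt2* in β-like cells.

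In endothelial-like cells, 1 of the 10 members lay past 1.5-fold between the libraries, *Pdgfrb* with 18 UMIs in WT and 50 in *Npc1*-/-, where 9.16% of 11086 genes did. It had 9 and 2 UMIs once the 5 WT and 13 *Npc1*-/- endothelial-like barcodes with at least 6 stellate markers were left out. None of the members that have their highest level in endothelial-like cells was past that size.

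In stellate-like cells, *Kdr*, *Flt1*, *Esm1* and *Plvap* lay past 1.5-fold, 4 of 10 members against 12.5% of 10121 genes. *Kdr* had 19 UMIs in WT and 146 in *Npc1*-/-, *Flt1* 20 and 200, *Esm1* 17 and 157, and *Plvap* 22 and 335. The endothelial markers moved with them, at 866.2 CPM summed in WT and 1382 CPM in *Npc1*-/-. Without the 1 WT and 6 *Npc1*-/- stellate-like barcodes that held at least 6 endothelial markers, *Kdr* had 5 and 10 UMIs, *Flt1* 2 and 2, *Esm1* 4 and 4, and *Plvap* 12 and 15. Nearly all of the gap thus lay in 6 barcodes. *Pdgfrb* was at 1013 and 1068 CPM without them. Of the 7 members then counted, *Vegfa* (32 and 21 UMIs), *Tek* (26 and 15) and *Pdgfb* (38 and 26) lay past 1.5-fold below, with intervals that reached past 0, where 11.9% of 9972 genes lay past it.

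**Figure D4:**
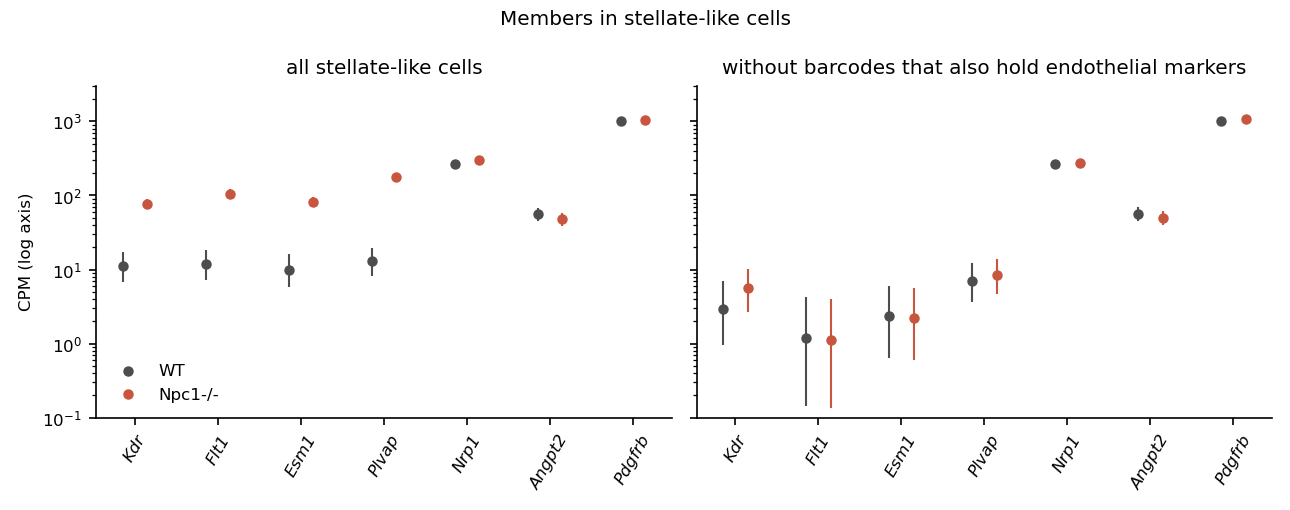
CPM (log axis) of 7 members in stellate-like cells, with all cells on the left and without barcodes that held at least 6 endothelial markers on the right, and bars for 95% Poisson intervals. On the left *Kdr*, *Flt1*, *Esm1* and *Plvap* are higher in *Npc1*-/-, and on the right the intervals of both libraries overlap for each gene shown.

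In β-like cells, 3 of 10 members lay past 1.5-fold, *Flt1* and *Tek* above and *Nrp1* below, where 9.57% of 14173 genes did. The levels were low, with *Flt1* at 4.82 (WT) and 8.18 CPM (*Npc1*-/-) and *Nrp1* at 4.31 and 3.08 CPM. Most of these UMIs lay in few barcodes. β-like barcodes with at least 3 endothelial, stellate or mesenchymal markers numbered 75 in WT (4.09%) and 121 in *Npc1*-/- (6.63%), and held 93.9% and 89.6% of the *Flt1* UMIs and 95.8% and 92.2% of those of *Nrp1*. Without them 3 of the 8 members still counted lay past 1.5-fold, where 9.59% of 13686 genes did, and all 3 were above. *Flt1* had 16 and 46 UMIs, with 1.43 (0.61 to 2.38), *Kdr* 23 and 45 UMIs, or 0.440 and 0.899 CPM, with 0.89 (0.15 to 1.69), and *Esm1* 22 and 41 UMIs, with 0.82 (0.05 to 1.65). In all β-like cells *Kdr* had been at 0.17 (-0.07 to 0.42) and *Esm1* at 0.47 (0.23 to 0.72), both within 1.5-fold. The 3 genes were thus higher in *Npc1*-/- after the removal, at levels below 1 CPM. The endothelial markers summed then stood at 0.119% (WT) and 0.143% (*Npc1*-/-) of their endothelial-like level in β-like cells. The part of such leftover endothelial transcripts in these values was not tested. *Nrp1* was at 0.191 and 0.260 CPM and *Tek* had 1 and 4 UMIs. *Vegfa* was hardly touched, at 75.2 and 97.6 CPM, and *Angpt2* stayed at 3.23 and 4.71 CPM.

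In α-like cells, 1 of the 9 members with at least 20 UMIs, *Pdgfrb* with 24 and 37 UMIs, lay past 1.5-fold, where 7.07% of 13384 genes did. After removal of 94 WT and 101 *Npc1*-/- barcodes by the same rule, *Pdgfrb* had 5 and 7 UMIs, and 2 of 7 counted members lay past 1.5-fold, both below, where 7.17% of 12950 genes lay past it. They were *Nrp1* with 77 and 35 UMIs and -0.97 (-1.60 to -0.38), and *Plvap* with 57 and 30 UMIs and -0.76 (-1.46 to -0.10). *Nrp1* was then at 4.65 CPM (3.67 to 5.81) in WT and 2.40 CPM in *Npc1*-/-. In all cells its α-like level was 1.85-fold (1.49 to 2.28) its β-like level in WT and 2.63-fold (2.08 to 3.31) in *Npc1*-/-. After the removal, which left 10 and 13 UMIs in β-like cells, it was 23.3-fold (12.5 to 52.7) and 9.01-fold (4.76 to 19.0). *Kdr* differed little between the same cells, at 0.604 and 0.685 CPM in α-like cells. δ-like cells had 3.45 and 3.63 CPM of *Nrp1* from 9 and 8 UMIs. *Angpt2* showed the opposite order, with α-like cells at 0.214-fold (0.101 to 0.377) of the β-like level in WT and 0.152-fold (0.0688 to 0.272) in *Npc1*-/-. Among the hormone classes, the low counts of *Nrp1* and *Angpt2* thus differed by class in both libraries. In all PP-like cells 3 members lay past 1.5-fold below, 1 above and 5 within it. The share of all genes past 1.5-fold was not counted in PP-like or δ-like cells, so these counts have no background beside them. *Nrp1* was at -1.45 (-2.24 to -0.73), *Esm1* at -0.91 (-1.37 to -0.45) and *Plvap* at -0.74 (-1.20 to -0.30). *Pdgfrb* lay above, at 2.17 (1.08 to 3.66), and in δ-like cells at 1.94 (0.84 to 3.35). Over all cells *Esm1* was thus lower in *Npc1*-/- PP-like cells, unlike in β-like cells. Of its PP-like UMIs, 93.3% in WT and 86.6% in *Npc1*-/- lay in barcodes with at least 3 endothelial, stellate or mesenchymal markers. The lower level thus rested mostly on UMIs of such barcodes. After the same removal *Nrp1* (11 and 6 UMIs), *Esm1* (7 and 9) and *Pdgfrb* (1 and 2) in PP-like cells had too few UMIs to be counted. So had *Pdgfrb* in δ-like cells (1 and 0). The 4 PP-like members still counted, *Plvap* among them, and the 2 δ-like members still counted lay within 1.5-fold.

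**Figure D5:**
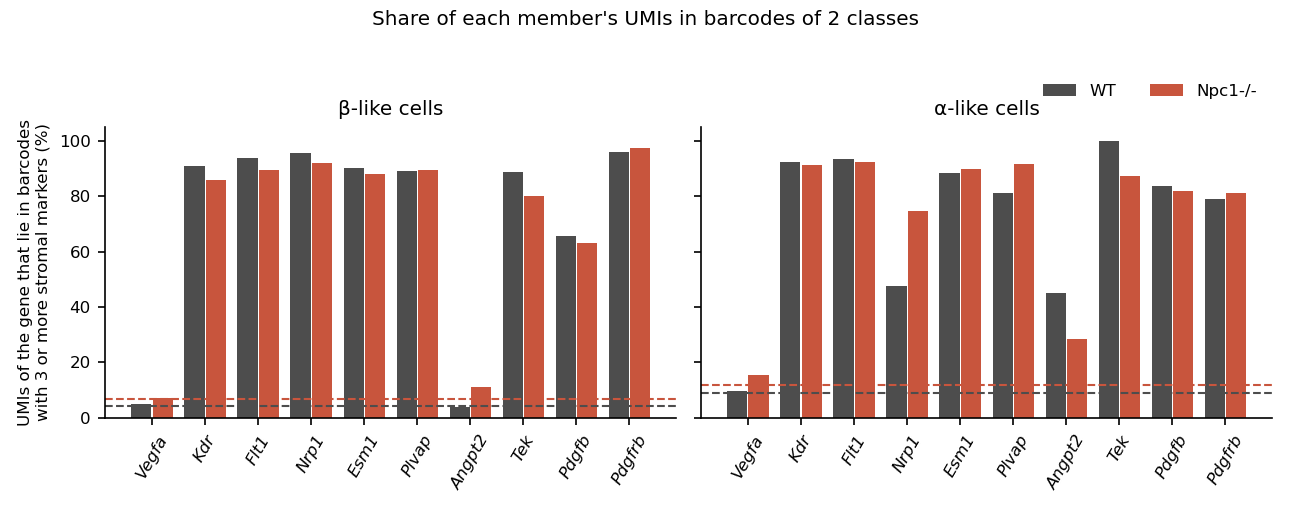
Percent of each member's UMIs in β-like and α-like cells that lie in barcodes with at least 3 stromal markers, for WT (grey) and *Npc1*-/- (red), and dashed lines for the percent of cells in such barcodes. *Vegfa* lies between 4.81% and 15.6% in both classes and *Angpt2* at 3.98% and 11.3% in β-like cells, whereas *Kdr*, *Flt1*, *Esm1*, *Plvap* and *Pdgfrb* reach 79.2% or more.

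The wider pathway was counted from fixed lists. In endothelial-like cells, 27 of 31 genes of VEGF receptor signal transduction had at least 20 UMIs, 0 lay 1.5-fold above and 1 below, and the median relative log2 ratio was 0.06. *Ptprb*, the endothelial phosphatase that dampens TIE2 and VEGFR2, was at 696.0 and 844.9 CPM with 0.28 (0.21 to 0.35), and *Hspb1* at 1054 and 902.0 CPM with -0.22 (-0.28 to -0.16). All 19 genes of fenestrated capillary and basement membrane were counted and 0 lay past 1.5-fold, with *Col4a1* at 5188 and 5444 CPM and *Sparc* at 8942 and 9653 CPM. Of the 18 tip, stalk and Notch genes, 0 lay above and 1 below. *Aplnr*, the apelin receptor of venous and sprouting endothelium, was at 424.8 and 331.5 CPM with -0.35 (-0.45 to -0.26). For class 3 semaphorins and plexins, which signal through neuropilins, 8 of 12 were counted, 0 above and 1 below. Of 6 counted angiopoietin and Tie genes 0 lay above and 1 below, and of 4 PDGF genes 1 above, *Pdgfrb*. Of 8 anti-angiogenic genes none lay past 1.5-fold, although *Timp3*, an inhibitor of VEGF binding to VEGFR2, was at 838.0 and 1166 CPM with 0.48 (0.42 to 0.54). Of 7 counted oxygen-sensing genes none lay past it, and of 18 hypoxia targets 1 above and 1 below. The genes past 1.5-fold, picked out after their values were seen, were *Shb* (46 and 32 UMIs), *Apln* (264 and 199), *Sema3a* (27 and 2), *Angptl4* (48 and 10) and *Adm* (57 and 22) below, and *Pdk1* (34 and 66) above. Over all genes of the class 9.16% lay past that size, and the counts of these lists are a description beside it.

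In stellate-like cells, 7 of 19 genes of fenestrated capillary and basement membrane lay above 1.5-fold, and 0 of 17 counted once the 7 barcodes with endothelial markers were left out, beside 12.5% and 11.9% of all genes past it in either direction. Of the anti-angiogenic genes 4 of 6 counted lay above in all stellate-like cells and 2 of 5, *Timp3* and *Sema3f*, after the removal. *Timp3* had 1119 CPM in WT and 1766 CPM in *Npc1*-/- over all stellate-like cells, with 0.65 (0.57 to 0.73), and 1108 and 1770 CPM after the removal, with 0.68 (0.59 to 0.76). *Sema3f* had 15 and 28 UMIs after it, with 0.79 (-0.14 to 1.82). The macrophage markers summed to 5.29 and 254.2 CPM over all stellate-like cells and to 5.34 and 269.3 CPM after the removal, and the endothelial markers to 792.8 and 820.1 CPM after it. The part of the macrophage markers in these values was not tested. *Epas1*, the HIF-2α subunit, was at 503.4 and 622.9 CPM with 0.30 (0.17 to 0.43) over all stellate-like cells, within 1.5-fold.

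Oxygen-sensing genes and hypoxia targets, which include *Vegfa*, were counted in β-like cells because *Vegfa* is a known target of hypoxia-inducible factors. Of 8 counted oxygen-sensing genes 1 lay above and 0 below 1.5-fold, and of 18 counted hypoxia targets 3 above and 1 below, with medians of 0.17 and -0.08, where 9.57% of all genes lay past it in either direction. *Hif1a* had 22.6 CPM in WT, against 28.9 CPM in *Npc1*-/-, with 0.22 (0.11 to 0.33), and *Egln1*, an oxygen-sensing prolyl hydroxylase, was at 15.4 and 20 CPM with 0.24 (0.11 to 0.38). The target *Aldoa* was at -0.19 (-0.23 to -0.14), *Mif* at -0.09 (-0.14 to -0.03) and *Bnip3l* at -0.12 (-0.19 to -0.06). These targets, which with *Vegfa* had the most UMIs of the list, were below the median gene. *Vegfa*, *Hif1a* and *Egln1* were above it. The part of hypoxia-inducible factors in these values was not tested. The genes past 1.5-fold, picked out after their values were seen, were *Egln3* (13 and 31 UMIs, in both lists), *Pdk1* (399 and 725) and *Pfkfb3* (51 and 194) above, and *Ddit4* (748 and 507) below.

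The genes whose levels followed the members most closely over the 20 class by library sums of at least 30 cells were found by Pearson r of log2(CPM + 1) among 14057 genes. *C1qtnf4* was nearest to *Vegfa* (r = 0.97), *Sox18* to *Kdr* (0.98) and to *Plvap* (0.96), *Gpihbp1* to *Flt1* (0.98), *Col13a1* to *Esm1* (0.98), *Aqp1* to *Tek* (0.98) and *Pth1r* to *Pdgfrb* (0.97). For *Nrp1* it was *Rftn1* (0.96), for *Pdgfb* *Gbp5* (0.94) and for *Angpt2* *Gstk1* (0.90). The sums share 2 libraries and differ in depth, so the values only describe likeness of profile. The nearest profile of *Angpt2* was thus the least alike.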

How the data were processed

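Islet cells of WT and *Npc1*-/- mice were profiled by droplet-based 3' single cell RNA sequencing (10x Genomics). The labels name another reagent version than the paper. The authors deposited matrices of unnormalized UMI counts for called cells, and the submitters' processing notes list Cell Ranger 3.1.0, Seurat 4.0.3 and mm10. Gene positions are those of the GENCODE annotation given with the reference.

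The study's stated filters were applied, with no doublet step, because the rule for the classes has none. The members and lists were chosen with earlier results of these data known. Classes needed at least 4 markers of 1 type and a lead of 2 over the next type. Within 2 points of the hormone limit lay 29 WT and 25 *Npc1*-/- barcodes below it and 51 and 37 above it. A class with duct markers was led by genes of another kind and left unnamed. No member is a marker. UMIs were summed by class and library, 0.5 counts were added for ratios, and genes with at least 20 UMIs over both libraries were counted. Values for shares of cells were taken after thinning to 3000 UMIs. By rule the text names the 10 members, at most 4 genes of each list with most UMIs in the class, and the nearest profiles. List genes past 1.5-fold, other genes of the VEGF and angiopoietin families and markers that split the endothelial-like cells are named beside it, chosen after values were seen. No test between genotypes was made, because cells are not replicates. Scripts were tested on simulated counts.

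Sums, intervals and ratios were computed in Python 3.11.15 with scipy 1.17.1 and numpy 2.4.6, tables in pandas 2.3.3, doublet scores in scanpy 1.11.5 and plots in matplotlib 3.10.9. R 4.3.3 with edgeR 4.0.16 gave the TMM factor alone. The alternatives tried were cell filters with wider and with narrower limits, removal of doublets by Scrublet, removal of barcodes of 2 classes, a hormone share of 25%, 2 more markers, other totals, means over cells, and other limits on low counts and depth. Chosen after seeing the data were leaving out cells of high stress genes, leaving out barcodes of both endothelial and stellate markers, and splitting β-like cells into 3 groups.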

Additional observations from a re-analysis of the deposited data

Results flagged for a closer look

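*Vegfa* lay on opposite sides of the median gene in the main endocrine classes. Its log2 ratio of *Npc1*-/- over WT was 0.23 (0.17 to 0.29) in β-like cells and -0.20 (-0.30 to -0.09) in α-like cells. It is listed because the 1 library of *Npc1*-/- lay above WT in one class and below it in the other, and the difference between the classes was not tested. Neither value reached 1.5-fold. WT α-like cells included 67 of 1048 with high stress genes, against 1 of 857 in *Npc1*-/-, and without such cells the α-like value was -0.17.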

How the results depend on the processing

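Ratios were given relative to the median gene, which lay at 0.14 in β-like cells on the class total, 0.08 with hormone genes left out and 0.0030 with the TMM factor, so these totals move every gene of a class alike and change no relative ratio. The mean over cells gave 0.13 for *Vegfa* in β-like cells, 0.22 for *Flt1* and 0.052 for *Esm1* in endothelial-like cells. With hormone shares of at least 25%, *Vegfa* in δ-like cells was at -1.58 from 4 and 3 cells. The stricter filter left 58 and 52 stellate-like cells and gave *Pdgfrb* -0.37. The β-like share of *Vegfa* UMIs in WT was 64.9% with the looser filter, 58.0% with the stricter and 62.4% without cells of high stress genes. In *Npc1*-/- it was 73.4% and 63.2% with these filters, 67.6% without barcodes of 2 classes and 64.0% with hormone shares of at least 25%. The percent of genes past 1.5-fold was 26.4% in β-like, 24.9% in α-like, 28.7% in endothelial-like and 32.3% in stellate-like cells when 1 UMI sufficed, and 3.97% in α-like, 4.58% in endothelial-like and 7.54% in stellate-like cells from 50 UMIs. *Kdr* in endothelial-like cells stayed between 0.18 and 0.22. Over 7 alternatives that change the cells or the averaging, *Vegfa* stayed between 0.13 and 0.25 in β-like and between -0.23 and -0.17 in α-like cells. The cause of these shifts was not tested. No paired analysis was possible because each genotype has 1 library and the labels give no replicate numbers. Levels under about 1 CPM rest on few molecules, and neither genotype has an error between mice.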

Other observations

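Barcodes that were in no class held members too. Of the unassigned barcodes, 22 of 111 in WT and 33 of 94 in *Npc1*-/- carried at least 6 endothelial and at least 6 stellate markers, with median depths of 18394 and 25302 UMIs. They held 5.97% of all *Kdr* UMIs in WT and 11.9% in *Npc1*-/-, 6.49% and 9.78% of *Pdgfrb*, and 0.0295% and 0.101% of *Vegfa*. *Vegfa* had 2 and 8 UMIs there.

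The unnamed group with duct markers, of 43 WT and 115 *Npc1*-/- barcodes with low hormone share, was led by genes such as *Ghrl* and *Tac1*. On the class total, its *Vegfa* level was above that of each hormone class in both libraries, with overlapping intervals for WT α-like and δ-like cells. Hormones took a median of 9.39% and 1.67% of UMIs in its barcodes, against 53.9% and 52.2% in β-like cells. With hormones left out of the total, β-like cells had 161.5 and 199.7 CPM of *Vegfa*. The group was not placed on that scale, so its rank holds for the class total alone. *Kdr* had 0 and 1 UMIs in the group. *Nrp2*, the other neuropilin, was at 191.3 and 188.3 CPM in endothelial-like cells and at 19.2 and 11.1 CPM in δ-like cells, against 0.748 and 0.609 CPM in β-like cells. *Flt4*, which encodes VEGFR3, was at 125.3 and 131.4 CPM in endothelial-like cells, in which the 4 lymphatic markers summed to 27.2 and 11.2 CPM.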
